A study of Mus musculus with 4 samples.

Results

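In libraries labelled Nck2 mutant (KO), the epididymal fat pad of mice held about 15% to 19% of the wild-type (WT) level of Tbx2 and Tbx3 transcripts, held far fewer transcripts of Tbx1, and held more of Tbx18, than libraries labelled wild-type. These genes encode T-box transcription factors, proteins that share a DNA-binding domain and set regional identity in the embryo. The genes described are Tbx1, Tbx2, Tbx3, Tbx4, Tbx5, Tbx15, Tbx18 and Tbx20, which are 8 of the 39179 genes measured and 8 of 17 genes of the family. They were chosen by symbol, as regional markers of fat depots and mesenchyme, with their values in these KO and WT libraries already known. Their differences between KO and WT are therefore given as a description, with no p-value of their own. They entered the fit over all genes, and how many of them it called is stated only beside the share of all genes called.

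T-box proteins bind DNA as activators or as repressors, and each family member is active in its own territory of the embryo. In fat, several of them are used to tell depots and adipocyte types apart. In mice Tbx15 marks subcutaneous rather than visceral fat, and Tbx1 has been used as a marker of beige adipocytes, the fat cells that burn fuel for heat. Tbx2 and Tbx3 are close relatives that mostly repress transcription, and Tbx18 marks mural cells, the cells that wrap small blood vessels, in adult mice.

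The study compared polyadenylated RNA of epididymal white adipose tissue, the fat pad next to the epididymis of male mice, between KO (Nck2-/-) and WT (Nck2+/+) mice of a mixed genetic background. Nck2 encodes an adaptor protein that links activated receptors to the actin cytoskeleton. Each group had 2 libraries. The sources used here give neither the age of the mice nor the structure of the mutant allele, and no label states that libraries are from separate mice. The p-values then measure only the spread between these libraries, which may be technical. Values are normalized read counts, which are reads assigned to a gene divided by the library's size factor. Each difference is the KO mean minus the WT mean of log2(normalized count + 1), with a standard error (SE). Adjusted p-values follow Benjamini and Hochberg and come from a limma fit to 16710 genes.

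Libraries held 33880872 to 37980391 reads in KO and 31831904 to 34056187 in WT. Of the genes tested, 46.7% passed an adjusted p of 0.05, with 22.4% higher and 24.4% lower in KO, and in 79.5% the KO and WT libraries did not overlap (38.9% with KO above WT and 40.6% with KO below). With all 4 libraries 3735 genes passed as higher and 4074 as lower. These numbers were 524 and 1061 when WT replicate 2 was left out, and 1205 and 1645 when WT replicate 1 was left out. Leaving out KO replicate 2 gave 2385 higher. Nck2 itself was at 1076 and 947 in KO and at 1279 and 1667 in WT (log2 difference -0.53, SE 0.16, adjusted p = 0.0509 from limma). It passed as lower under DESeq2 (adjusted p = 0.018) and in limma with a pseudocount of 5 (adjusted p = 0.0495).

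The libraries also differed in transcripts of other tissues. Summed over 21 markers of epididymis and vas deferens epithelium, KO libraries held 1388 and 333 normalized counts and WT libraries 431065 and 411772, and 10 of the markers, among them Lcn5, Lcn8 and Pax2, were at 0 in both KO libraries. Over 16 smooth muscle and mural cell markers the sums were 50157 and 57804 in KO and 466825 and 604264 in WT. Over 16 mature adipocyte markers they were 1869115 and 2111695 in KO and 784290 and 525940 in WT, so the labelled tissue had its defining markers in all 4 libraries. Of these, 12 were higher in KO (5 when WT replicate 1 was left out, 2 when WT replicate 2 was). Over 10 mesothelial markers, which come from the sheet of cells that covers the fat pad, KO replicate 2 stood apart with 5877, against 30142 in KO replicate 1, 23784 in WT replicate 1 and 34610 in WT replicate 2. In RNA of whole tissue, fewer cells of a type and less RNA per cell cannot be told apart. The labels do not state whether the dissections differed, and the part of other tissues in the T-box values was not tested.

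Upstream sequence was held by RefSeq tables (GRCm38.p6) for 4 of the 8 genes, Tbx1, Tbx4, Tbx18 and Tbx20. The 250 bases before a start annotated by RefSeq are shown for the 3 of these with reads, so that the windows of Tbx1 and Tbx4, which were lower in KO, can be set beside that of Tbx18, which was higher. Capitals mark AGGTGT, the core of the site bound by T-box proteins, searched with its reverse complement ACACCT on both strands. The Tbx1 window lies on the minus strand at chr16:18590672-18590921, the Tbx4 window on the plus strand at chr11:85896515-85896764 and the Tbx18 window on the minus strand at chr9:87731261-87731510. The Tbx4 window precedes a start inside the gene as GENCODE places it (85886422 to 85916097), so it is not the stretch upstream of the whole gene. The Tbx1 and Tbx18 windows end at the outer border of the GENCODE gene.
Tbx1: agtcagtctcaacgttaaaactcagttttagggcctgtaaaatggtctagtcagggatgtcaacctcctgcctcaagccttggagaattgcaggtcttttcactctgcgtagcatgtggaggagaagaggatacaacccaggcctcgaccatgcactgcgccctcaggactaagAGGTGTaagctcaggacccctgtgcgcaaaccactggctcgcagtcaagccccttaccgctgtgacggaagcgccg
Tbx4: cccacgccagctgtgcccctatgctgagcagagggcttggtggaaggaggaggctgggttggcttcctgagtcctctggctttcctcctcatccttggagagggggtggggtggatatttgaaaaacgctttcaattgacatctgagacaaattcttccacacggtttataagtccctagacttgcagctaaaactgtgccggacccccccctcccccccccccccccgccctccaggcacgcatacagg
Tbx18: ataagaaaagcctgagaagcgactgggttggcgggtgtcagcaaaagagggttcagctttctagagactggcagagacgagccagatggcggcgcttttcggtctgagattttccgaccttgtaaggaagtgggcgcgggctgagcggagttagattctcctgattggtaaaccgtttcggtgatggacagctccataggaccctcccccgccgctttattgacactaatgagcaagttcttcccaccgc
The core stood once in the Tbx1 window, 76 bases before the start, and in none of the other windows of these genes, including that of a downstream start of Tbx1. Over the 300-base windows of all genes, which add 50 bases after the start, 4514 of 32851 (13.7%) held it, as did 1 of 5 windows of the 4 genes and 1 of the 9 other family genes, T. A match of these letters is a description and no evidence of binding.

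Tbx2 (ENSMUSG00000000093, GRCm38 chromosome 11, 85832551 to 85841948, plus strand) encodes a repressor that keeps cells from entering senescence and patterns the heart and limb. Its normalized counts were 267 and 344 in the KO libraries, against 1968 and 2180 in the WT libraries. Both KO libraries lay far below both WT libraries, and the WT libraries lay close together. The means were 305 ± 54.2 in KO and 2074 ± 150 in WT (SD, n = 2 each), which puts KO at 14.7% of WT. The log2 difference was -2.77 (SE 0.15).

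Tbx3 (ENSMUSG00000018604, chromosome 5, 119670669 to 119684724, plus strand) encodes the closest relative of Tbx2, a repressor needed for limb and mammary gland development. It was at 544 and 611 normalized counts in KO and at 2847 and 3109 in WT. The groups again did not overlap, and the libraries of each group differed by little against the gap between the groups. The means were 578 ± 47.4 in KO and 2978 ± 186 in WT (SD, n = 2 each), so that KO stood at 19.4% of WT, with a log2 difference of -2.36 (SE 0.09). The authors' deposited table gave log2 fold changes of -2.75 for Tbx2 and -2.36 for Tbx3.

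Tbx1 (ENSMUSG00000009097, chromosome 16, 18580979 to 18590671, minus strand) acts in the pharyngeal region and is the gene most closely tied to the human DiGeorge syndrome. It was at 1.87 and 8.93 normalized counts in KO (2 and 8 reads) and at 44.8 and 55.8 in WT (44 and 60 reads). The KO libraries were both near the floor of detection and below both WT libraries, and KO replicate 1 was the lower of the KO pair. The means were 5.40 ± 4.99 in KO and 50.3 ± 7.77 in WT (SD, n = 2 each). The log2 difference was -3.26 (SE 0.69). Pooled over the libraries of a group, the ratio of KO to WT was 0.101, for which counting error alone gives an exact 95% interval from 0.0469 to 0.193. The difference was -4.15 without KO replicate 2 and -2.36 without KO replicate 1, so its size rested on which KO library was kept.

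Tbx4 (ENSMUSG00000000094, chromosome 11, 85886422 to 85916097, plus strand) acts in hindlimb and lung mesenchyme. It was at 21.6 and 6.69 normalized counts in KO (23 and 6 reads) and at 39.7 and 48.4 in WT (39 and 52 reads). The groups did not overlap, but the KO libraries lay far apart, with KO replicate 2 the lower. The means were 14.1 ± 10.5 in KO and 44.1 ± 6.11 in WT (SD, n = 2 each). The log2 difference was -1.77 (SE 0.60), and it was -0.99 without KO replicate 2 and -2.54 without KO replicate 1. The pooled ratio of KO to WT was 0.334 (exact 95% counting interval 0.212 to 0.512). The summed mesothelial markers were also lower in KO replicate 2 than in KO replicate 1, as were the summed tract epithelial markers (333 against 1388). Unlike Tbx4, the mesothelial sum was higher in KO replicate 1 (30142) than in WT replicate 1 (23784). The part of either tissue in the Tbx4 values was not tested.

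Tbx18 (ENSMUSG00000032419, chromosome 9, 87702800 to 87731260, minus strand) acts in the epicardium and in the mesenchyme around the ureter, and it was the only one of the 5 genes with enough reads to be tested that was higher in KO. It was at 327 and 234 normalized counts in KO and at 112 and 137 in WT. Both KO libraries lay above both WT libraries, and the KO pair was spread more widely than the WT pair. The means were 281 ± 65.5 in KO and 124 ± 17.5 in WT (SD, n = 2 each), a ratio of 2.26. The log2 difference was 1.15 (SE 0.23).

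The other 3 genes were at or near the floor. Tbx5 (ENSMUSG00000018263, chromosome 5, 119832668 to 119885219, plus strand), an activator of forelimb and heart genes, was at 0 and 10.04 normalized counts in KO and at 2.04 and 7.44 in WT. Tbx15 (ENSMUSG00000027868, chromosome 3, 99240381 to 99354259, plus strand) was at 6.56 and 14.5 in KO and at 8.15 and 5.58 in WT. For both the groups overlapped. The pooled ratio of KO to WT was 0.943 for Tbx5 (exact 95% counting interval 0.339 to 2.58), and for Tbx15 it was 1.496 (0.719 to 3.20). Both intervals spanned equal levels, so the sign of any difference was not settled. They cover counting error only, and libraries of a group also differed, as with 0 and 9 reads of Tbx5 in KO and 2 and 8 in WT. Tbx20 (ENSMUSG00000031965, chromosome 9, 24718138 to 24774303, minus strand), which acts in heart muscle, had 0 reads in all 4 libraries. A count of 0 allows up to 3 reads, or 2.81 and 3.35 normalized counts in the KO libraries and 3.06 and 2.79 in the WT libraries.

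**Figure D1:**
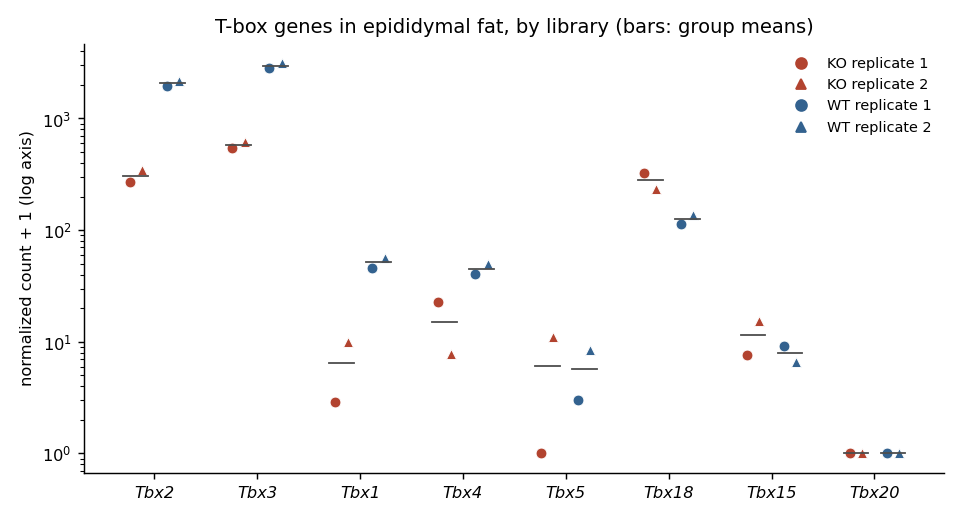
Normalized count + 1 (log axis) of the 8 T-box genes in each KO and WT library, with points for libraries and bars for group means. Tbx1, Tbx2, Tbx3 and Tbx4 have both KO points below both WT points, Tbx18 has both KO points above them, and Tbx20 is at 0 throughout.

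Of the 8 genes, 5 reached a mean of 10 normalized counts and entered the fit over all genes. Of these, 1 was called higher (Tbx18) and 3 lower (Tbx1, Tbx2 and Tbx3) where 22.4% and 24.4% of all genes were, and in all 5 the groups did not overlap, as in 79.5% of all genes. Since the genes were chosen with these values known, nothing is read from those counts. The genes called were 5, with Tbx4 among them, without KO replicate 1, and only Tbx2 and Tbx3 when either WT library was left out. Among all 16710 differences, 7.23% lay below that of Tbx1, 8.66% below that of Tbx2, 9.98% below that of Tbx3, 12.4% below that of Tbx4 and 92.6% below that of Tbx18. Nearest to the minimum mean of 10 were Tbx15 outside it, with a mean of 8.70, and Tbx4 and Tbx1 inside it, with 29.1 and 27.9.

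**Figure D2:**
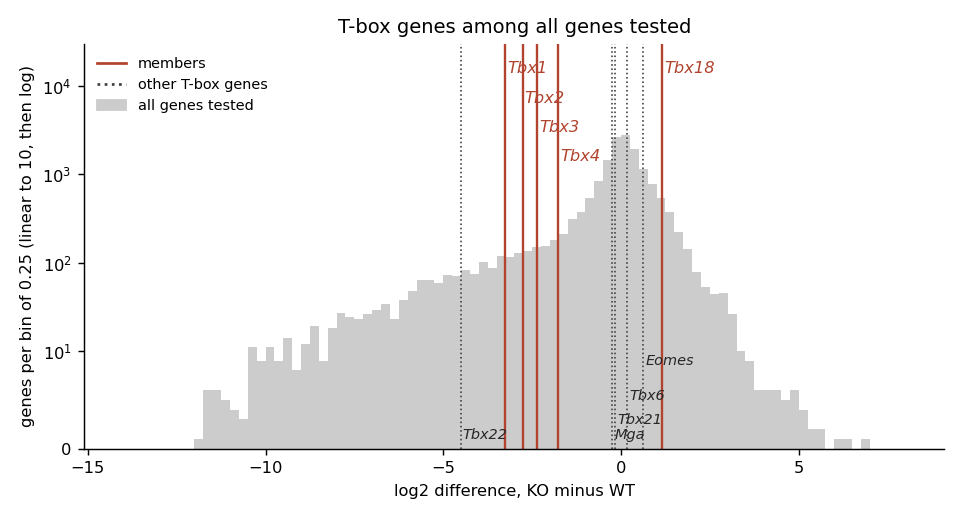
Histogram of the log2 difference, KO minus WT, of all 16710 genes tested, with the counts per bin on an axis that is linear to 10 and logarithmic above. Vertical marks place Tbx1, Tbx2, Tbx3 and Tbx4 on the negative side, from -3.26 to -1.77, and Tbx18 at 1.15, while the median of all genes was -0.01.

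The balance among the genes differed between the groups. Levels of different genes were set side by side as normalized counts per kilobase of merged exons. On that scale Tbx3 was at 82.2 and 92.3 in KO and at 430 and 469 in WT, and Tbx2 was at 73.6 and 94.8 in KO and at 543 and 601 in WT. The level of Tbx2 was 1.06 and 1.91 times that of Tbx18 in the KO libraries, against 22.9 and 20.7 times in the WT libraries. The level of Tbx3 was 1.12 and 0.974 times that of Tbx2 in KO and 0.792 and 0.781 times in WT.

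In KO libraries the order per kilobase was Tbx3 (mean 87.2), Tbx2 (84.2), Tbx18 (59.5), Tbx4 (4.15), Tbx15 (2.81), Tbx1 (1.54), Tbx5 (1.07) and Tbx20. Only Tbx2 against Tbx18 and Tbx18 against Tbx4 were neighbours whose libraries did not overlap. In WT libraries the order was Tbx2 (572), Tbx3 (449.6), Tbx18 (26.4), Tbx1 (14.3), Tbx4 (13.0), Tbx15 (1.83), Tbx5 (1.01) and Tbx20. There the overlapping neighbours were Tbx1 with Tbx4 and Tbx15 with Tbx5. With the length of the longest transcript in place of merged exons the KO order was the same, and in WT Tbx3 came before Tbx2.

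**Figure D3:**
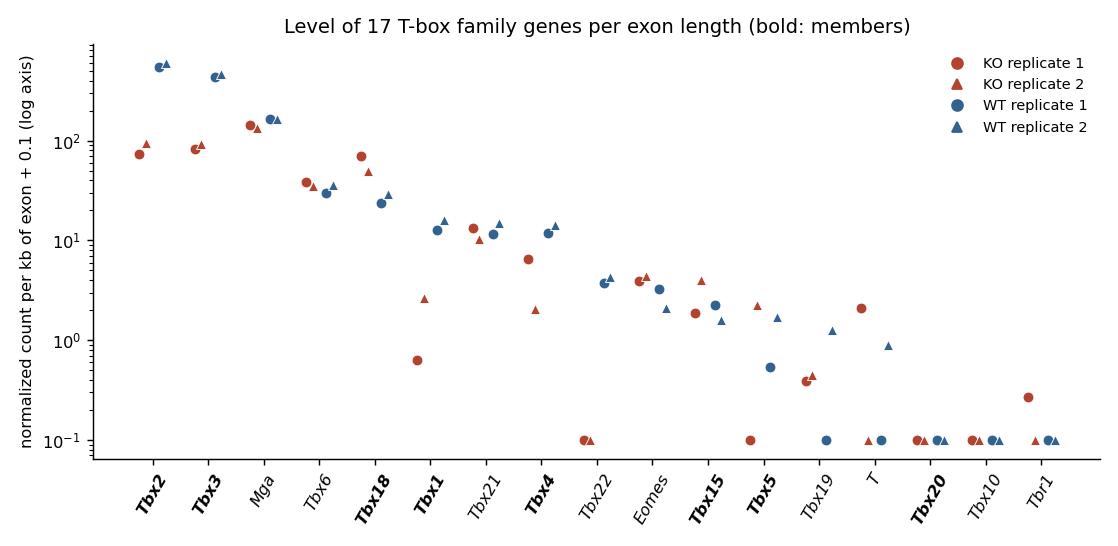
Normalized count per kilobase of exon + 0.1 (log axis) of 17 T-box family genes in each KO and WT library, with the 8 chosen genes in bold. Tbx2, Tbx3 and Mga lie highest in both groups, and Tbx18 lies closer to Tbx2 in KO than in WT.

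Of the 9 other family genes, 5 were tested. Tbx22, which acts in the forming palate, fell: it had 0 reads in both KO libraries and 20 and 25 reads in the WT libraries, or 20.4 and 23.3 normalized counts. This is at least 14.3-fold lower in KO, taking a floor of 3 reads over the KO group. Tbx22 had a mean of 10.9 over the 4 libraries, little above the minimum for testing, and the WT libraries alone supplied it. Its adjusted p from limma was 0.0037. With 0 reads in both KO libraries the fit had no KO spread to measure, so nothing is concluded from that p-value. Mga, a large protein that carries both a T-box domain and a domain that pairs with Max, was at 2212 and 2063 in KO and at 2508 and 2544 in WT. Its log2 difference of -0.24 (SE 0.067) passed with an adjusted p of 0.043 but did not pass when any one of the 4 libraries was left out, where it was, for example, -0.29 without KO replicate 1 and -0.19 without KO replicate 2.

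The immune members of the family did not pass. Tbx21, the factor that directs type 1 helper T cells and natural killer cells, was at 32.8 and 25.7 normalized counts in KO and at 28.5 and 37.2 in WT (log2 difference -0.16, adjusted p = 0.69 from limma). Eomes, which acts in natural killer and cytotoxic T cells, was at 15.9 and 17.9 in KO and at 13.2 and 8.37 in WT (0.63, adjusted p = 0.25 from limma). Over 15 T and natural killer cell markers, of which 14 were tested, 1 passed with all 4 libraries, Trac, and none passed when any one of the 4 was left out, and the sums were 758 and 739 in KO and 608 and 713 in WT. Tbx6, a factor of the early mesoderm, was at 69.3 and 63.6 in KO and at 54.0 and 64.2 in WT (0.17, adjusted p = 0.55 from limma). Tbx10 had 0 reads in all 4 libraries, and Tbx19, Tbr1 and T had at most 5 reads in any library.

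The genes beside the T-box genes were read next, because Tbx2 and Tbx4 lie next to each other on chromosome 11, 44.5 kb apart, and Tbx3 and Tbx5 lie 148 kb apart on chromosome 5. Bcas3, the coding gene 6.49 kb from Tbx2, was at 1241 and 1297 normalized counts in KO and at 1188 and 1245 in WT, a log2 difference of 0.06 (adjusted p = 0.51 from limma). Brip1, on the far side of Tbx4, was at 93.7 and 64.7 in KO and at 47.9 and 48.4 in WT (0.68, adjusted p = 0.10 from limma). Both flanking coding genes thus had a positive difference where Tbx2 and Tbx4 had a negative one, and neither passed.

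On chromosome 5, Med13l, a subunit of the Mediator complex, was at 2131 and 2210 normalized counts in KO and at 1744 and 1935 in WT (log2 difference 0.24, adjusted p = 0.0669 from limma). Rbm19 was at 438 and 526 in KO and at 392 and 408 in WT (0.26, adjusted p = 0.158 from limma). Beside Tbx1, Gnb1l had a difference of -0.14 and Gp1bb of -0.67, and neither passed. Wars2, 1.19 kb from Tbx15, fell to 345 and 367 in KO, against 620.5 and 665 in WT (-0.85, adjusted p = 0.0043 from limma), while Tbx15 had at most 13 reads in any library. The Wars2 difference did not pass when WT replicate 1 (-0.90) or WT replicate 2 (-0.80) was left out.

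Tbx18 had no tested coding gene within 447 kb. At that distance lay 4922501C03Rik, with a difference of -0.33 that passed only when KO replicate 1 was left out (-0.51), and 596 kb away on the other side lay Nt5e, which makes adenosine outside the cell. It fell to 603 and 688 normalized counts in KO, against 3747 and 3969 in WT (log2 difference -2.58, adjusted p = 0.00058 from limma), the opposite direction to Tbx18. Spag17, a gene of motile cilia 531 kb from Tbx15, fell to 1.87 and 1.12 in KO, against 25.5 and 52.1 in WT (-3.93, adjusted p = 0.0067 from limma). Beside Tbx20, which had no reads, Dpy19l1 was at 1437 and 1482 in KO and at 942 and 862 in WT (0.70, adjusted p = 0.0042 from limma), and it did not pass when WT replicate 2 was left out (0.63).

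Non-coding genes lay closer, and those named here other than Tbx3os1 were chosen after their values were seen, so no p-value is given for them. The noncoding gene 2610027K06Rik, whose start is 327 bases from Tbx2 on the opposite strand, was at 6.56 and 8.93 normalized counts in KO, against 129 and 162 in WT (log2 difference -4.07, SE 0.30). Tbx3os2, 370 bases beyond the end of Tbx3 on the opposite strand, had 0 reads in both KO libraries and was at 62.2 and 57.7 in WT, at least 39.1-fold lower in KO with a floor of 3 reads over the group. Tbx3os1, which overlaps the start of Tbx3 by 697 bases on the opposite strand, was at 7.50 and 17.9 in KO and at 28.5 and 32.6 in WT (-1.31, SE 0.50, adjusted p = 0.093 from limma), and it passed without KO replicate 2 (-1.89). For all 3 the groups did not overlap, with KO the lower, as in 40.6% of all genes tested, and nothing is read from that. The strand setting of the counting step is unknown, and without it the reads of overlapping genes on opposite strands cannot be separated. Values of Tbx3 and Tbx3os1 are uncertain to that extent, as are, by the annotation, those of Tbx15, which overlaps Gm43120, and Tbx18, which overlaps D030062O11Rik. The same holds for 2610027K06Rik and Bcas3, whose annotated spans overlap on opposite strands.

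**Figure D4:**
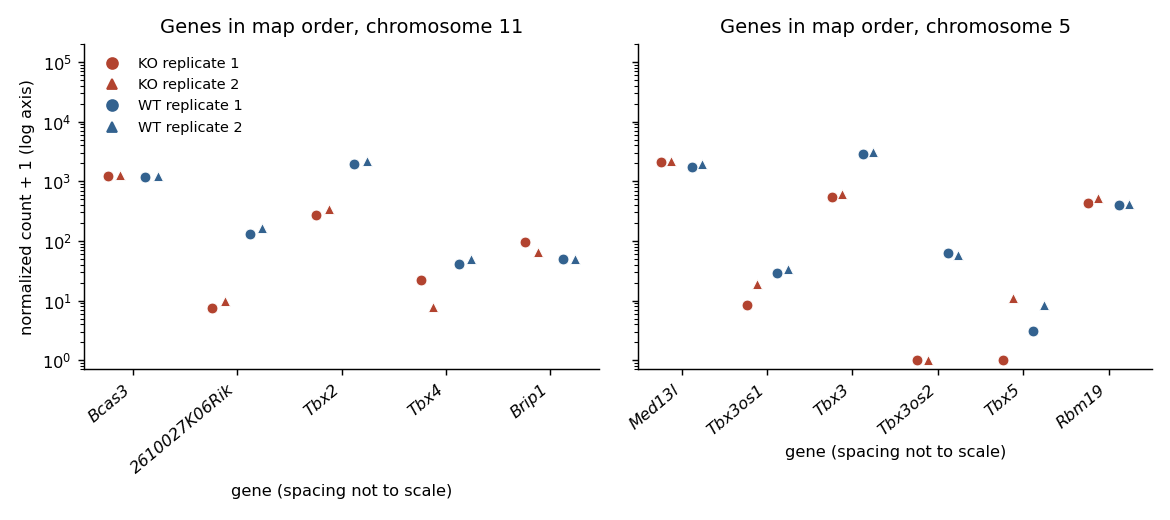
Normalized count + 1 (log axis) in each KO and WT library of the genes around Tbx2 and Tbx4 and around Tbx3 and Tbx5, in map order with spacing not to scale. The T-box genes Tbx2, Tbx3 and Tbx4 and the noncoding genes beside them lie lower in KO, while the flanking coding genes lie level with or slightly above WT.

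T-box proteins act with partner proteins, and of 25 genes of partners and cofactors 17 were tested, of which 6 were higher, 4 were lower and 7 missed the threshold. The median log2 difference was -0.03, against -0.01 over all genes. Smarcd3, the chromatin remodelling subunit that works with Tbx5 in the mouse heart, fell to 515 and 610 normalized counts in KO, against 3450 and 3282 in WT (-2.58, SE 0.11, adjusted p = 0.00067 from limma). Tle2, a corepressor of the Groucho family, fell to 377 and 399 in KO, against 1122 and 1624 in WT (-1.80, adjusted p = 0.0039 from limma). Its relative Tle1 was at 969 and 857 in KO and at 1923 and 1801 in WT (-1.03, adjusted p = 0.0025 from limma). Chd7, a chromatin remodeller that acts together with Tbx1, was at 1122 and 1195 in KO and at 586 and 654 in WT (0.90, adjusted p = 0.0034 from limma). Ripply3, Gata6, Tle3 and Mef2c were also higher, and Hand2 was the other gene lower. Leaving out WT replicate 1 left 1 gene higher and 2 lower, with Tle1 at -0.98. Leaving out WT replicate 2 left 0 higher and 2 lower, with Tle1 at -1.08 and Chd7 at 0.98. Smarcd3 and Tle2 passed whichever of the 4 libraries was left out.

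Of 16 genes reported as targets of T-box proteins, mostly in heart, limb and cancer cells, 12 were tested, of which 5 were higher, 3 were lower and 4 missed the threshold (median 0.53). Cdh1, the epithelial cadherin that TBX2 and TBX3 repress in human cancer cells, fell to 19.7 and 12.3 normalized counts in KO, against 3466 and 3930 in WT (log2 difference -7.80, SE 0.25, adjusted p = 0.00056 from limma). Cdh1 is also a gene of epithelial cells, and it was low in the same libraries as the summed epithelial markers of the reproductive tract, whose part in this was not tested. Fgf10, a growth factor activated by Tbx4 and Tbx5 in the limb bud, rose to 4359 and 3793 in KO, against 1992 and 1951 in WT (1.04, adjusted p = 0.0023 from limma). Gja5, a gap junction gene that Tbx5 activates and Tbx3 represses in the mouse heart, rose to 928 and 906 in KO, against 431 and 377 in WT (1.18, adjusted p = 0.0023 from limma).

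Cdkn2a, the senescence gene that Tbx2 and Tbx3 repress in mouse cells, was at 32.8 and 22.3 normalized counts in KO and at 9.17 and 6.51 in WT. Its log2 difference of 1.68 passed (adjusted p = 0.029 from limma), but it did not pass under DESeq2, nor when any one of the 4 libraries was left out (1.42 to 1.95). Ndrg1 and Gja1 were the other target genes higher, and Snai2 was also lower. Leaving out KO replicate 2 left 3 higher and 3 lower, leaving out WT replicate 1 left 2 and 1, and leaving out WT replicate 2 left 1 and 1. Fgf10 did not pass when either WT library was left out (1.06 with WT replicate 1 left out, 1.03 with WT replicate 2 left out), while Cdh1 and Gja5 passed whichever of the 4 libraries was left out.

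The T-box genes belong to a wider set of developmental genes that differ between fat depots. Of 20 such genes 16 were tested, of which 4 were higher, 8 were lower and 4 missed the threshold (median log2 difference -0.70). Hoxa10, a homeobox gene of the posterior body and the reproductive tract, fell to 11.2 and 6.69 normalized counts in KO, against 1220 and 1533 in WT (-7.14, SE 0.30, adjusted p = 0.00069 from limma). Its neighbour Hoxa9 fell to 24.4 and 19.0 in KO, against 532 and 615 in WT (-4.67, SE 0.21, adjusted p = 0.00073 from limma). Nr2f1, an orphan nuclear receptor, fell to 214 and 228 in KO, against 851 and 1064 in WT (-2.10, adjusted p = 0.0015 from limma). Sfrp2, a secreted Wnt modulator, was at 641 and 517 in KO and at 2158 and 2074 in WT (-1.88, adjusted p = 0.0014 from limma), and it did not pass without WT replicate 2 (-1.91). These genes were low in the same libraries as the summed tract epithelial and smooth muscle markers, whose part in this was not tested.

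Not all homeobox genes of the list were lower. Hoxc8 rose to 4384 and 4345 normalized counts in KO, against 1962 and 1202 in WT (log2 difference 1.51, adjusted p = 0.011 from limma), and it passed whichever of the 4 libraries was left out. Shox2, Thbd and Gpc4 were the other genes higher, and Hoxc10, Tcf21, Meis1 and Meis2 the other genes lower. The number higher was 1 when WT replicate 2 was left out, when the number lower was 3, and it was 2 when any other library was left out. Wt1, which marks visceral fat precursors and mesothelium, was at 1168 and 418 in KO and at 659 and 819.7 in WT, with overlapping groups.

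Cell type markers were then set beside the T-box genes they accompany. Of the 16 smooth muscle and mural cell markers, 10 were lower and 1 was higher, with a median log2 difference of -3.33. Myocd, the master regulator of smooth muscle genes, fell to 25.3 and 24.5 normalized counts in KO, against 1379 and 1484 in WT (-5.79, SE 0.13, adjusted p = 0.00052 from limma), and Cnn1, Tagln and Des fell as well. The 6 mural cell genes of the list, singled out after the values were seen, had smaller differences of both signs: 0.52 for Rgs5, 0.35 for Notch3, 0.33 for Pdgfrb, 0.11 for Abcc9, -0.23 for Cspg4 and -0.37 for Kcnj8. Rgs5 was at 10764 and 10865 in KO and at 8930 and 6380 in WT (0.52, adjusted p = 0.0738 from limma). Pdgfrb, the receptor that defines pericytes, was at 4193 and 4685 in KO and at 3453 and 3601 in WT (0.33, adjusted p = 0.032 from limma), and it did not pass without KO replicate 2 (0.25), WT replicate 1 (0.30) or WT replicate 2 (0.36). Kcnj8, a potassium channel subunit, was at 916 and 969.6 in KO and at 1169 and 1276 in WT (adjusted p = 0.024 from limma), and it did not pass when any one of the 4 libraries was left out (-0.44 to -0.31). The other 3 did not pass with all 4 libraries. Leaving out 1 library gave calls of Rgs5 as higher (0.76 without WT replicate 1), Notch3 as higher (0.48 without KO replicate 1) and Cspg4 as lower (-0.56 without KO replicate 2), and Cspg4 changed sign without KO replicate 1 (0.11). Tbx2 and Tbx3 were thus low in the libraries low in contractile smooth muscle genes, while the mural genes did not go 1 way with Tbx18. The part of smooth muscle, tract epithelium or mural cells in the T-box values was not tested.

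Of the 15 beige and brown adipocyte markers, the set to which Tbx1 has been assigned, 3 were higher, 2 were lower and 10 missed the threshold (median 1.06). The sums were 7593 and 13526 in KO and 9716 and 11947 in WT, where Cited1 alone gave 4797 and 8779. The likeness of the sums thus rested on that gene. Cited1 fell to 3.75 and 4.46 normalized counts in KO, against 4797 and 8779 in WT (log2 difference -10.32, SE 0.33, adjusted p = 0.00055 from limma). It was low in the same libraries as the summed epithelial markers of the reproductive tract, whose part in this was not tested. P2rx5, Ucp1 and Ebf2 were higher instead. Elovl3 (3.20), Cox8b (2.76) and Cidea (1.98) had positive differences that missed the threshold. Besides Cited1, the negative differences of the list were those of Tnfrsf9 (-1.35) and Tmem26 (-1.17). Ucp1, the uncoupling protein that makes heat, was at 228 and 2842 in KO and at 21.4 and 5.58 in WT (6.05, SE 1.38, adjusted p = 0.026 from limma). KO replicate 2 had the higher Ucp1 and the higher Tbx1 of the KO pair, while Tbx1 was lower in KO than in WT and Ucp1 was higher. The number of markers higher was 9 without KO replicate 1. It was 1 when either WT library was left out, and Ucp1 then did not pass (6.94 without WT replicate 1, 5.17 without WT replicate 2). The number lower was 1, which was Cited1, whichever of the 4 libraries was left out.

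Tbx1 is also expressed in striated muscle, whose 14 markers summed to 2111 and 8012 in KO and to 13412 and 19313 in WT. Of 12 tested, 2 were higher and 3 lower, with a median of 0.56 although the sums were lower in KO, where Acta1 made up most of the WT sums with 9138 and 13526 against 811 and 1955 in KO. The differences were positive for Myh4 (6.35), Myh1 (4.13), Myh2 (3.04), Ttn (2.83), Myl1 (1.83), Myh7 and Myl7. They were negative for Acta1, Ckm, Tnnt3, Actc1 and Tnnt2, so the markers did not go 1 way with Tbx1. The order of the 4 libraries by the sum, which followed Acta1, was the same as their order by Tbx1. The summed smooth muscle and mural markers had that order too (50157 and 57804 in KO, 466825 and 604264 in WT), as had Tbx2 and Tbx3. The order was thus not particular to striated muscle or to Tbx1. The part of muscle in the Tbx1 values was not tested. The numbers higher and lower were 0 and 0 without either WT library, 7 and 4 when KO replicate 1 was left out, and 1 and 5 when KO replicate 2 was. Of the 10 mesothelial markers, 2 were lower, Krt19 and Slc39a8, and none was higher. Those numbers were 0 and 0 without either WT library, and without KO replicate 2 there were 3 higher and 2 lower. Of 14 adipocyte progenitor markers, 3 were higher, 1 was lower and 10 missed the threshold, and none was higher when either WT library was left out. Their sums were 204424 and 158723 in KO and 143928 and 130993 in WT.

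**Figure D5:**
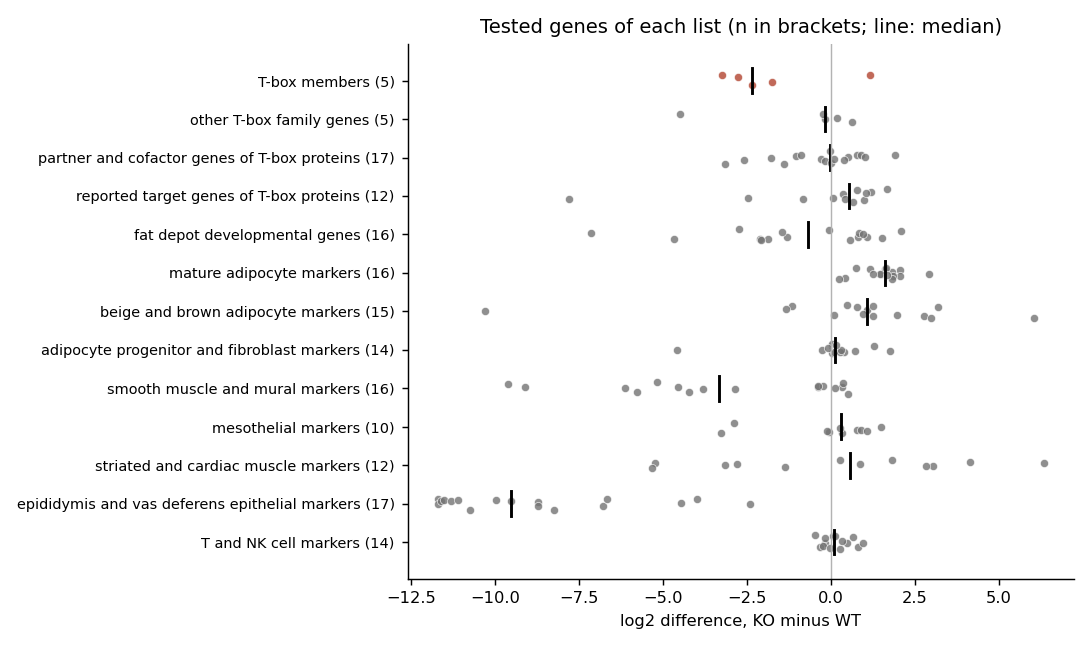
Log2 difference, KO minus WT, of each tested gene of each list, with a line at the list's median and the number tested in brackets. The tract epithelial markers lie lowest, with a median of -9.53 and 16 of 17 lower, the smooth muscle and mural markers split into a low group and a group near 0, and 12 of 16 mature adipocyte markers are higher, with a median of 1.62.

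Genes whose pattern over the 4 libraries was nearest to that of each T-box gene were found by the Euclidean distance between log2 values centred on each gene's mean, over 14026 genes. For Tbx2 the nearest were Tes (distance 0.043), Plekhb1 (0.052) and Hebp2 (0.107), and for Tbx3 they were Smad9 (0.103), Pde5a (0.124) and Npy1r (0.128). Tes was at 364 and 473 normalized counts in KO and at 2788 and 3001 in WT. For Tbx1 they were Tnnt1 (0.329), Rpl3l (0.344) and Car12 (0.376), farther off than for any other T-box gene tested. Tnnt1 and Rpl3l are genes of striated muscle, and Tnnt1 was at 17.8 and 70.3 in KO and at 248.6 and 316 in WT, with KO replicate 1 the lowest as for Tbx1. Car12 is in none of the marker lists here, and it was also lowest in KO replicate 1 (12.2, against 49.1 in KO replicate 2).

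For Tbx4 the nearest were Wfikkn2 (distance 0.146), Ezr (0.166) and Wfdc1 (0.182), all of them lower in KO replicate 2 than in KO replicate 1. Ezr, which links membranes to actin in epithelial and mesothelial cells, was at 3489 and 1234 normalized counts in KO and at 6361 and 8829 in WT. For Tbx18 the nearest were Gpr132 (0.086), Tmem98 (0.094) and Syk (0.116). Syk, a kinase of immune cells, was at 2317 and 1694 in KO and at 771 and 891 in WT. With 4 libraries and 2 groups many genes share such a pattern, so the distances describe likeness and nothing more.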

How the data were processed

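Polyadenylated RNA of 4 libraries was sequenced as single reads with a TruSeq RNA kit, which in its standard form keeps no strand information. The submitters' processing notes name CASAVA 1.8, TopHat2 2.0.10, HTSeq 0.5.3, the GRCm38 build and DESeq2 1.4.5. For 39179 genes the authors deposited a signal, the normalized count, obtained from reads by dividing by size factors (0.8962 to 1.0673 in KO, 0.9815 to 1.0748 in WT). Their deposited comparison holds a log2 fold change, p-values and a test score for each gene. Multiplied by the size factor, 100% of normalized counts were whole reads within 0.01.

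From these values, genes with a mean of 10 or more were tested on log2(normalized count + 1) with limma 3.58.1 (trend) in R 4.3.3 over 16710 genes. Intervals and floors (3 reads) cover counting error only, at the 95% level. Positions and lengths came from GENCODE M21 for 37693 genes (96.2%). The recovered reads were tested with DESeq2 1.42.0 and with edgeR 4.0.16. Other alternatives were TMM and upper-quartile scaling, a minimum mean of 50, no filter, pseudocounts of 5 and 0.5, robust moderation, a block for the replicate number, and leaving out each library, where the lone library is assumed to vary like the other group. The steps were tested on simulated data.

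The T-box genes and all lists were chosen with earlier results of these data known. Named were the T-box family, Nck2, the 3 genes nearest in pattern to each tested T-box gene, most of the nearest tested coding neighbours, and overlapping genes. Of most lists up to 4 genes by smallest p were named, but no mature adipocyte or progenitor marker was. Tract markers were named for having no reads in both KO libraries. Further genes of some marker lists were named to show both directions. Target, partner and depot genes that passed were named too, except a few that are not reported here.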

Additional observations from a re-analysis of the deposited data

How the results depend on the processing

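The differences of the 5 T-box genes tested kept their sign under all alternatives run, from -4.15 to -2.36 for Tbx1, -2.95 to -2.59 for Tbx2, -2.45 to -2.28 for Tbx3, -2.54 to -0.99 for Tbx4 and 0.91 to 1.39 for Tbx18 (log2). Over all genes, leaving out 1 library gave 524 to 2846 higher and 1061 to 3434 lower. With fewer degrees of freedom in such fits, calls can be lost while differences stay.

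Leaving out each library in turn gave 0 to 6 partner genes higher and 2 to 6 lower, 1 to 5 target genes higher and 1 to 3 lower, 1 to 2 depot genes higher and 3 to 9 lower, and 1 to 1 other T-box genes lower. Among markers it gave 1 to 9 beige higher and 1 to 1 lower, 2 to 9 mature adipocyte higher, 0 to 2 smooth muscle higher, 0 to 3 mesothelial higher and 0 to 3 lower, 0 to 4 progenitor higher, 0 to 7 striated higher and 0 to 5 lower, and 0 to 0 T and natural killer cell higher.

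Of 260 counts for lists under the other alternatives, 239 stayed within 1.5 times and 21 moved; the cause was not tested. Other T-box genes lower were 1, not 2, under upper-quartile scaling, DESeq2, no filter or the replicate block, where Mga no longer passed, and 1 at a minimum mean of 50, which Tbx22 did not reach. T and natural killer cell markers higher were 0, not 1, under edgeR, DESeq2, no filter, a minimum mean of 50 or the replicate block. Smooth muscle markers higher were 2 under upper-quartile or TMM scaling, 3 under DESeq2 and 0 with the replicate block. Mesothelial markers lower were 0 under edgeR or the replicate block. DESeq2 gave 7 beige and 5 striated markers higher, and a pseudocount of 5 gave 1 striated marker higher. A minimum mean of 50 gave 0 progenitor and 1 striated markers lower, with fewer genes tested. The replicate numbers were not shown to pair libraries: the differences between replicates in KO and WT had a correlation of -0.0747 over 14031 genes.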
